A study of Mus musculus with 6 samples.

Results

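The genes described here are the 37 genes of glucose uptake, glycolysis, lactate export, pyruvate dehydrogenase kinases and the pentose phosphate pathway that a fixed list of symbols picked out of the 22192 genes of a count table. All 37 were in the table. The RNA was that of RAW 264.7, an established line of macrophage-like cells from BALB/c mice. Cells of 3 libraries had been kept for 24 h with 200 µg/mL of ASPS-A1, a polysaccharide of the acidic fraction of Acanthopanax senticosus leaves, and 3 libraries were labelled control. What the control cells received is not given in the sources used here. The titles number the treated libraries 1 to 3 after the letter A, whereas all 3 carry ASPS-A1 as their treatment. All libraries come from this single cell line, and the labels do not say whether they came from separate cultures, so the p-values measure only the spread between these libraries, which may be technical.

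Glycolysis turns glucose into pyruvate in the cytosol. Its entry enzymes, hexokinase and phosphofructokinase, are the main points of control, and the later steps of the chain return ATP. Lactate dehydrogenase and monocarboxylate transporters dispose of pyruvate as lactate, while pyruvate dehydrogenase kinases inhibit the mitochondrial complex that turns pyruvate into acetyl-CoA. The pentose phosphate pathway leaves glycolysis at glucose phosphate. Its oxidative arm makes NADPH, and its non-oxidative arm exchanges sugars between ribose phosphate and glycolytic intermediates. Macrophages given bacterial lipopolysaccharide are known for high glucose use and lactate release, and they use NADPH for the oxidative burst and for glutathione.

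The libraries held 19989318 to 22179544 counts with ASPS-A1 and 23113454 to 26137127 counts in control. Macrophage markers were present, with 8 of 8 abundant enough to test and a summed level of 3076 to 3190 CPM with ASPS-A1 against 2189 to 2210 CPM in control (CPM, the count relative to the scaled library size). Marker lists of T cells, fibroblasts, epithelium, endothelium and neutrophils summed to at most 0.924 CPM with ASPS-A1 and at most 0.638 CPM in control. Among their defining genes, Cd3e, Epcam, Krt8, Ly6g, Mpo and Elane were at 0 counts in every library. The muscle list, led by Ckm, summed to 2.44 to 2.72 CPM with ASPS-A1 and 1.86 to 1.88 CPM in control.

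Transcripts for uptake, glycolysis, lactate export and the kinases were mostly lower with ASPS-A1, with 18 of 28 tested genes lower, 2 higher and 8 not past an adjusted p of 0.05. Transcripts of the pentose phosphate pathway were mostly higher, with 6 of 7 genes higher and 0 lower. Over all 35 members tested, 18 were lower and 8 higher, where 33% of the 11686 genes tested were lower and 32.4% higher (65.3% in either direction). The median log2 fold change of the members was −0.16, beside −0.021 over all genes tested. With scaling by library totals alone, which shifted the median of all genes by −0.19 on the log2 scale, 26 members were lower and 6 higher. Of all 11686 genes, 5454 were lower and 2529 higher by library totals. With offsets that remove trends with transcript length and GC content, 24 members were lower and 7 higher, and the pentose phosphate genes Taldo1 and Rpia were then among the lower. Of all 11686 genes, 3514 were lower and 3770 higher with these offsets. In 26 of the 35 the ranges of ASPS-A1 and control were apart, beside 68.5% of all genes. Most changes were small, since 6 members were at least 1.5-fold lower (14.5% of all genes were), 4 of them at least 2-fold lower (5.74%), and 1 was at least 1.5-fold higher (12.8%). In bulk RNA, fewer cells with a transcript and less of it per cell cannot be told apart. Fbp1 and Ldhb were too scarce to test.

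**Figure D1:**
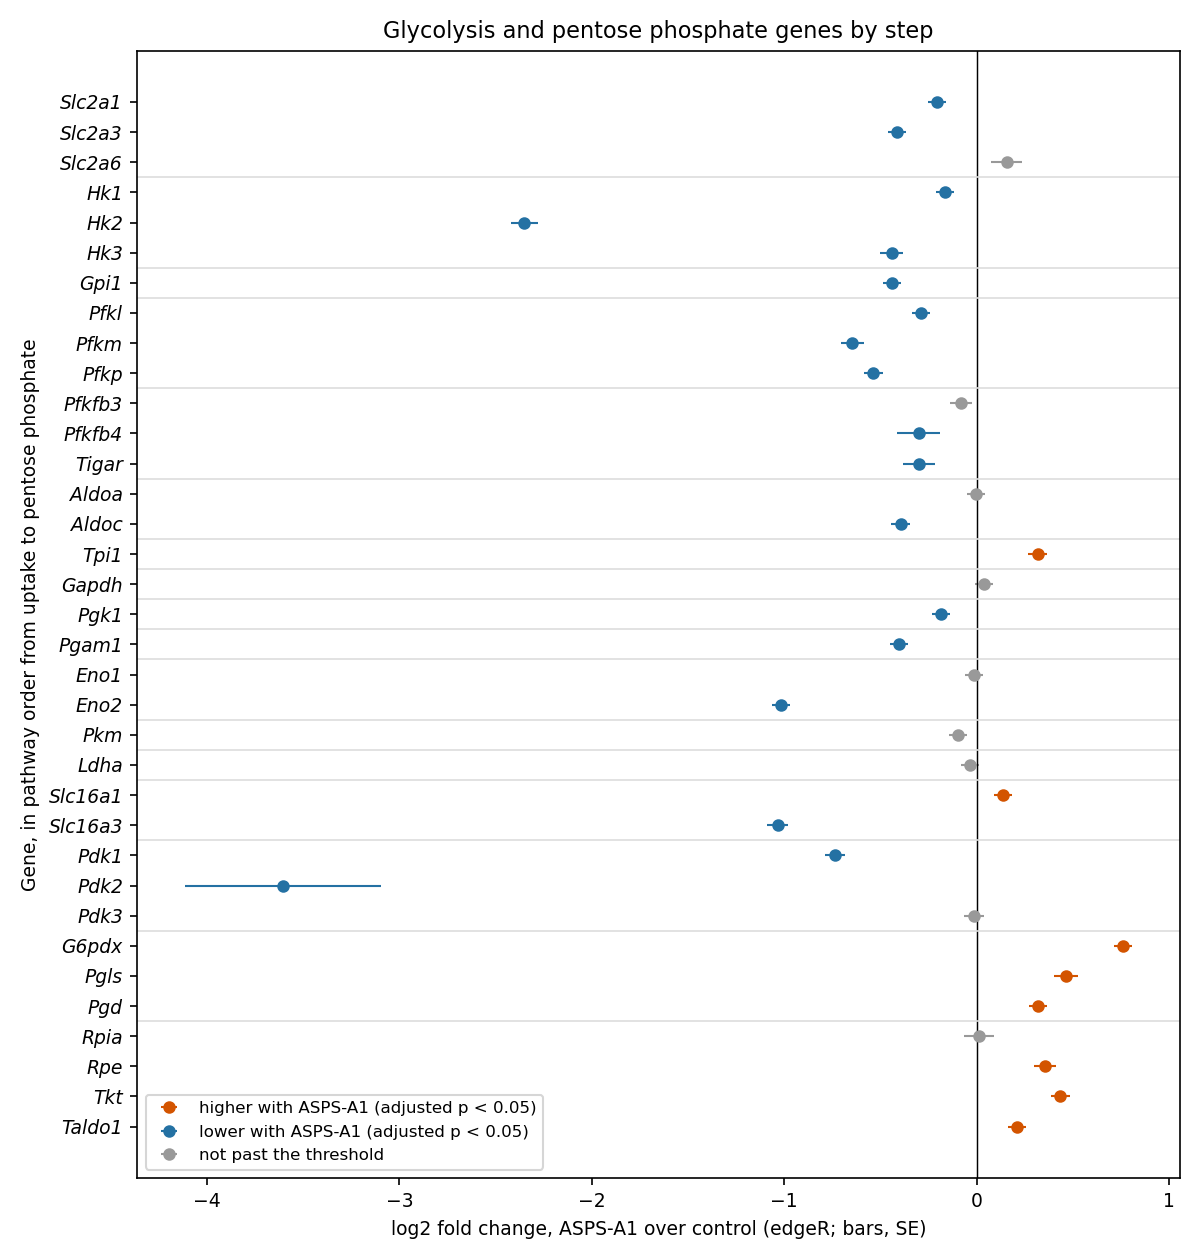
Log2 fold change of ASPS-A1 over control for the 35 members tested, in pathway order from glucose uptake at the top to the pentose phosphate pathway at the bottom, with the standard error as bars and grey lines between steps. Hk2 (−2.35) and Pdk2 (−3.60) lie far to the left, the pentose phosphate genes lie at or right of 0, and abundant enzymes such as Aldoa, Gapdh and Ldha lie close to 0.

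Of the 3 glucose transporters, 2 fell. Slc2a3, which encodes the high-affinity transporter GLUT3, had 165, 163 and 162 CPM with ASPS-A1 and 212, 222 and 219 CPM in control, a log2 fold change of −0.41 ± 0.05 (SE, adjusted p = 1.44e-10, edgeR). Slc2a1, which encodes the widespread transporter GLUT1, averaged 266 ± 7.02 CPM with ASPS-A1 and 307 ± 8.83 CPM in control (SD, n = 3 each, as for all means below), a log2 fold change of −0.21 ± 0.05. Slc2a6, which encodes a further member of the transporter family, had 37.9 ± 2.62 CPM with ASPS-A1 and 34.0 ± 3.52 CPM in control and did not pass the test (adjusted p = 0.0790), though it did without ASPS-A1 replicate 3 (adjusted p = 0.0438). The summed level of the 3 transporters was 467 CPM with ASPS-A1 and 559 CPM in control.

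Hexokinase, which traps glucose in the cell as glucose phosphate, showed the largest change among the well-expressed members. Hk2, the inducible isozyme that can bind mitochondria, had 25.2, 23.5 and 21.5 CPM in the ASPS-A1 libraries and 111, 120 and 127 CPM in the control libraries. Every ASPS-A1 library lay far below every control library. The log2 fold change was −2.35 ± 0.07, or 5.10-fold lower (adjusted p = 5.36e-31), and it ran from −2.41 to −2.29 when each library was left out in turn. Hk1, the constitutive isozyme, had 247, 257 and 240 CPM with ASPS-A1 and 282, 277 and 274 CPM in control. These groups also did not overlap, but they lay close together, at a log2 fold change of −0.16 ± 0.05 (adjusted p = 0.00205), and the value was 0.066 (adjusted p = 0.151) in a fit whose offsets remove trends with transcript length and GC content. Hk3, an isozyme of myeloid cells, averaged 66.8 ± 2.69 CPM with ASPS-A1 and 90.6 ± 4.95 CPM in control, a log2 fold change of −0.44 ± 0.06.

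The makeup of the hexokinase transcripts differed too. Per kilobase of transcript, Hk2 made up 5.11% ± 0.404 of the 3 hexokinases with ASPS-A1 and 18.9% ± 1.11 in control, and Hk1 made up 69.9% ± 0.882 with ASPS-A1 and 56.6% ± 1.67 in control (SD, n = 3 each). The log2 ratio of Hk1 to Hk2 counts was 3.41 ± 0.10 with ASPS-A1 and 1.22 ± 0.12 in control (exact permutation p = 0.1, two-sided, the smallest that 3 libraries against 3 allow). Ratios of this kind were computed for 14 pairs of members, of which 13 had this smallest p (0.108 after Benjamini-Hochberg adjustment over the 14) and Pfkfb3 to Pfkfb4 had 0.2. Some pairs share a member, so the ratios are not independent. Among single genes, 68.5% of all tested had groups apart, and ratios of other gene pairs were not computed. Summed over the isozymes, hexokinase stood at 339 ± 8.94 CPM with ASPS-A1 and 488 ± 8.41 CPM in control.

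**Figure D2:**
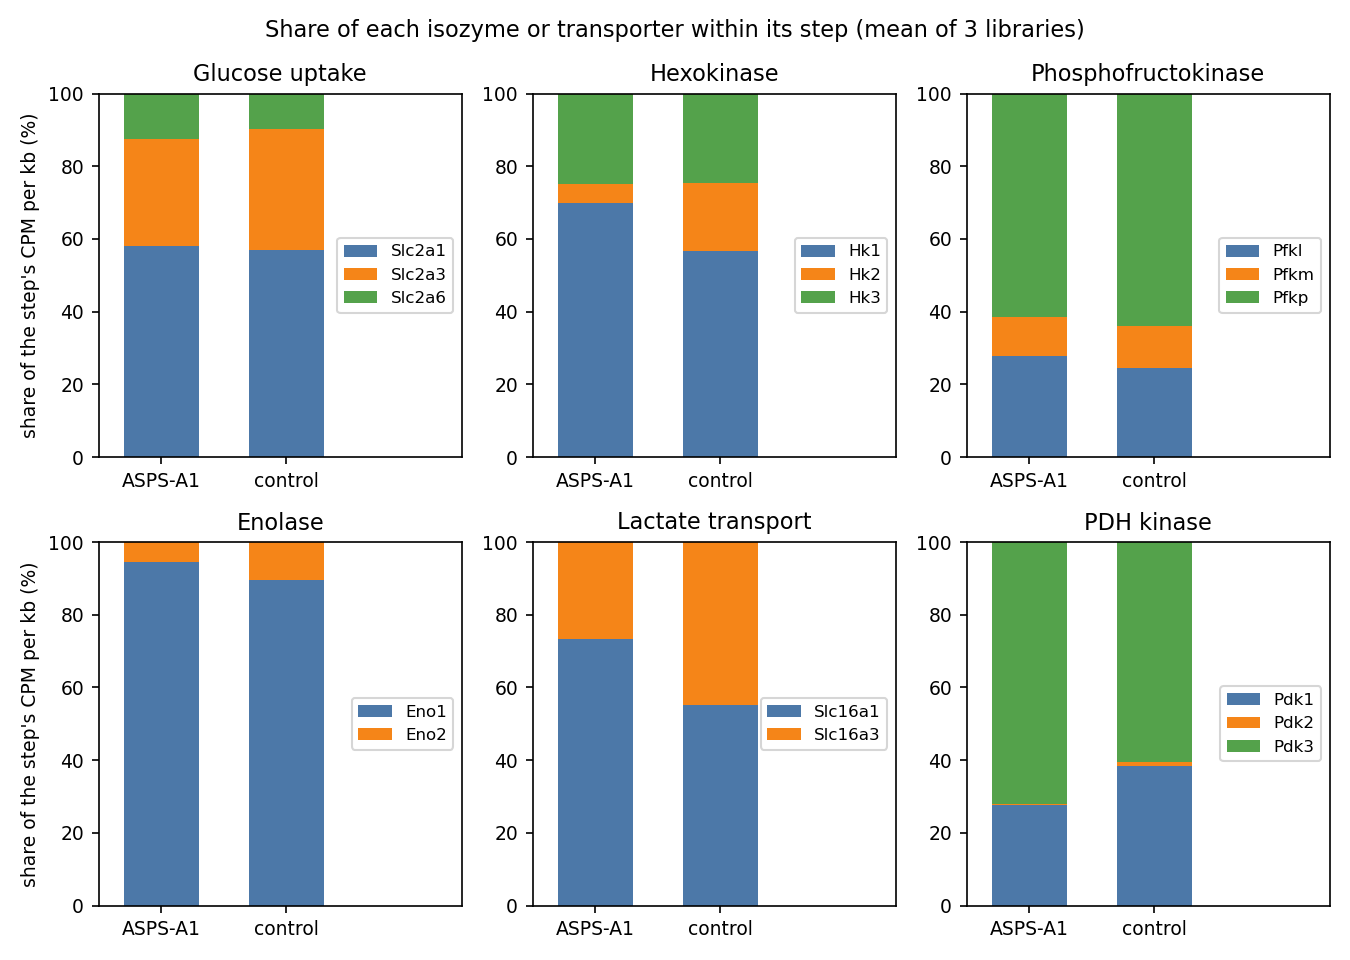
Stacked bars of the share of each member in the CPM per kilobase summed over the members of its step, as the mean of 3 libraries per group, with ASPS-A1 to the left of control. Genes outside the member list, such as Eno1b, are not in these sums. The share of Hk2 was 5.11% with ASPS-A1 and 18.9% in control, and the share of Slc16a3 was 26.5% with ASPS-A1 and 44.9% in control.

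The 3 members with the largest falls were Pdk2, Hk2 and Slc16a3, and their promoters are shown because hypoxia-inducible factor and E-box factors such as MYC are known regulators of glycolytic genes. Letters in capitals mark ACGTG or GCGTG, the core of a hypoxia response element, on either strand (CACGT or CACGC where read from the other strand), and the E-box CACGTG, which contains ACGTG. Sequences are from RefSeq (GRCm38.p6), 5′ to 3′ on the gene's strand, and end at the annotated start, or for Slc16a3 14 bases before it, where an exon of another transcript begins.
Pdk2, chr11:95041372-95041621, minus strand: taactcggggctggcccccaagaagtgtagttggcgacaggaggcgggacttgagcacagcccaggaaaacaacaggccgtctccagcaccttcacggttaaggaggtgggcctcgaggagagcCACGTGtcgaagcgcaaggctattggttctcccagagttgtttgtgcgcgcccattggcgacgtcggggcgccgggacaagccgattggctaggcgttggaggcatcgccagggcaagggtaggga
Hk2, chr6:82774455-82774704, minus strand: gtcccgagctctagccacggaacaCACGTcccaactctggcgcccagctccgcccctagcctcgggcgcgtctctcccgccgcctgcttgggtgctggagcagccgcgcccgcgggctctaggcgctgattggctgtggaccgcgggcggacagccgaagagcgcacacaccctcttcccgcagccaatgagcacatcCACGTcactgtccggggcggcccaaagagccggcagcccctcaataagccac
Slc16a3, chr11:120948817-120949052, plus strand: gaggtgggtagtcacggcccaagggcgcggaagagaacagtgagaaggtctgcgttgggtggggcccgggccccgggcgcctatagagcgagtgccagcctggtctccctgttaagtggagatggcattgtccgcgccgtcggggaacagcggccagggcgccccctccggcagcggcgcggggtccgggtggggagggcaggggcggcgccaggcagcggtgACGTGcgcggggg

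The Hk2 window holds ACGTG on the opposite strand at 226 and 52 bases before the start, and the Pdk2 window holds an E-box at 126 bases before it. These letters are common. Among the 36 members with a promoter entry, 33.3% held ACGTG in the 250 bases before the start, beside 22.2% of the 9277 tested genes with an entry and 16.6% of all 32851 promoters in the table. GCGTG was held by 52.8% of these members, by 45.9% of the tested genes and by 28.2% of all promoters, and CACGTG by 11.1% of the members, 8.54% of the tested genes and 6.02% of all promoters. Of the 12 members that held ACGTG, 8 were called lower (among them Hk2 and Pgk1), 1 was called higher (Slc16a1) and 3 were not past the threshold (Pfkfb3, Ldha and Pdk3). With or without these letters, 51.4% of the members tested and 33% of all genes tested were called lower. A link between the letters and the falls was not tested.

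Below hexokinase, the steps down to phosphofructokinase were all lower with ASPS-A1. Gpi1, the isomerase that makes fructose phosphate, averaged 1183 ± 37.1 CPM with ASPS-A1 and 1606 ± 40.9 CPM in control, a log2 fold change of −0.44 ± 0.05 (adjusted p = 1.93e-11). An annotated neighbour shares 11.5% of its exon length, and whether the counting used strand is not given in the sources. Phosphofructokinase commits sugar to glycolysis, and its 3 subunit genes all fell. Pfkm, the muscle-type subunit, had 52.8, 56.6 and 61.2 CPM in the ASPS-A1 libraries and 92.7, 88.4 and 85.5 CPM in the control libraries. The groups lay well apart, at a log2 fold change of −0.65 ± 0.06 (adjusted p = 9.03e-13), with 10.8% of its exon length shared with other genes. Pfkp, the platelet-type subunit and the most abundant of the 3 per kilobase, averaged 479 ± 22.9 CPM with ASPS-A1 and 696 ± 15.5 CPM in control (log2 fold change −0.54 ± 0.05). Pfkl, the liver-type subunit, averaged 196 ± 7.15 CPM with ASPS-A1 and 239 ± 8.33 CPM in control (−0.29 ± 0.05). The shares of the 3 subunits shifted little beside those of hexokinase, with Pfkp at 61.6% ± 0.361 of the CPM per kilobase with ASPS-A1 and 63.9% ± 0.709 in control.

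Genes that set the level of fructose 2,6-bisphosphate, the allosteric activator of phosphofructokinase, had small differences. Pfkfb3, the kinase-type enzyme that is induced in activated macrophages, averaged 92.8 ± 1.56 CPM with ASPS-A1 and 98.3 ± 7.01 CPM in control and did not pass the test (log2 fold change −0.082 ± 0.056, adjusted p = 0.197). Pfkfb3 was called in opposite directions by other fits, at 0.15 (adjusted p = 0.00702) with the offsets for length and GC content, at −0.28 (adjusted p = 5.37e-05) by library totals and at −0.13 (adjusted p = 0.0296) with upper-quartile factors. Pfkfb4, a related bifunctional enzyme, averaged 11.9 ± 1.24 CPM with ASPS-A1 and 14.7 ± 0.888 CPM in control (−0.30 ± 0.11, adjusted p = 0.0174). Pfkfb4 was not past the threshold without ASPS-A1 replicate 2 (adjusted p = 0.0533), ASPS-A1 replicate 3 (0.0824) or control replicate 3 (0.0806), nor with the offsets (−0.17, adjusted p = 0.186). Tigar, a phosphatase that lowers this activator, averaged 23.4 ± 1.19 CPM with ASPS-A1 and 28.8 ± 0.755 CPM in control (−0.30 ± 0.08, adjusted p = 0.00149). Fbp1, the gluconeogenic phosphatase, had 12 counts over the ASPS-A1 libraries and 9 over the control libraries.

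At the aldolase and enolase steps, the less abundant isozyme among the members fell, while the call on the more abundant member depended on the scaling. Aldoa, the main aldolase, averaged 3123 ± 187 CPM with ASPS-A1 and 3128 ± 76.3 CPM in control (log2 fold change −0.0024 ± 0.0483, adjusted p = 0.967), whereas Aldoc averaged 140 ± 4.18 CPM with ASPS-A1 and 184 ± 2.95 CPM in control (−0.39 ± 0.05, adjusted p = 1.01e-09). Aldoa was called lower by library totals (−0.20, adjusted p = 5.42e-05) and with the offsets (−0.23, adjusted p = 2.64e-07). Eno2, the neuron-type enolase that many cultured lines also express, had 128, 125 and 124 CPM in the ASPS-A1 libraries and 256, 248 and 258 CPM in the control libraries. Each ASPS-A1 library held fewer than any control library, and the fall was 2.02-fold (log2 fold change −1.02 ± 0.05, adjusted p = 3.03e-23). Eno1, the ubiquitous enolase, had 1485, 1599 and 1569 CPM with ASPS-A1 and 1597, 1540 and 1555 CPM in control. Here the groups overlapped (log2 fold change −0.012 ± 0.047, adjusted p = 0.835), although Eno1 was called lower when scaled by library totals (−0.21) and under the offsets (−0.11). Eno1 has a near-identical copy, Eno1b, with 99.5% identity over 81.5% of the transcript, and how reads shared by both were assigned is not given. Eno1b itself was at 1033 ± 36.2 CPM with ASPS-A1 and 1030 ± 43.8 CPM in control. Eno3, an enolase gene outside the member list, averaged 29.0 ± 2.26 CPM with ASPS-A1 and 31.0 ± 0.799 CPM in control. It did not pass the test (log2 fold change −0.097, adjusted p = 0.294), but was called lower by library totals (−0.29) and with the offsets (−0.34). The log2 ratio of Eno2 to Eno1 was −3.63 ± 0.07 with ASPS-A1 and −2.62 ± 0.03 in control (exact permutation p = 0.1, two-sided, n = 3 each).

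The middle of the chain moved in both directions. Tpi1, which interconverts the triose phosphates, averaged 1398 ± 50.5 CPM with ASPS-A1 and 1122 ± 73.7 CPM in control (log2 fold change 0.32 ± 0.05, adjusted p = 2.34e-07). Of the 16 glycolytic enzyme genes among the members, Tpi1 alone was called higher. Its value was 0.081 (adjusted p = 0.0686) with the offsets for length and GC content. Gapdh, often used as a reference transcript, averaged 7799 ± 311 CPM with ASPS-A1 and 7599 ± 253 CPM in control (0.037 ± 0.047, adjusted p = 0.502). Library totals gave −0.16 (adjusted p = 0.000401) for Gapdh, and the offsets gave −0.23. In the annotation, 152 pseudogenes matched its transcript at 90% identity or more over at least 50% of its length. By the same rule 2 pseudogenes matched Pgk1, both at 100% identity, and 4 matched Pkm. Pgk1, which makes the first ATP of the chain, averaged 3516 ± 38.6 CPM with ASPS-A1 and 3998 ± 95.0 CPM in control (−0.19 ± 0.05, adjusted p = 0.000474). Pgam1, the mutase, averaged 1159 ± 43.3 CPM with ASPS-A1 and 1536 ± 12.4 CPM in control (−0.41 ± 0.05, adjusted p = 1.83e-10). Pkm, the pyruvate kinase, averaged 3655 ± 116 CPM with ASPS-A1 and 3909 ± 150 CPM in control and missed the threshold (−0.097 ± 0.047, adjusted p = 0.0677), with 15.3% of its exon length shared. Pkm passed it when scaled by library totals (−0.29, adjusted p = 4.28e-08) and under the offsets (−0.11, adjusted p = 0.00729), as it did without ASPS-A1 replicate 2 (adjusted p = 0.0122) or control replicate 3 (adjusted p = 0.0254). Across the 16 glycolytic enzyme genes, 11 were lower, 1 was higher and 4 were not past the threshold, with a median log2 fold change of −0.34. The median was −0.44 over the 9 genes from hexokinase to aldolase and −0.097 over the 7 from triose phosphate isomerase to pyruvate kinase. These medians take no account of transcript length. Among all tested genes binned by length, the median was 0.27 in the bin of Tpi1, Gapdh, Pgam1 and Aldoa, and −0.12 in that of Pfkl and Pfkp. With the offsets, all of the 9 but Hk1 and all of the 7 but Tpi1 were called lower, beside 3514 of all 11686 genes tested. The part of length in this contrast was not tested further.

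**Figure D3:**
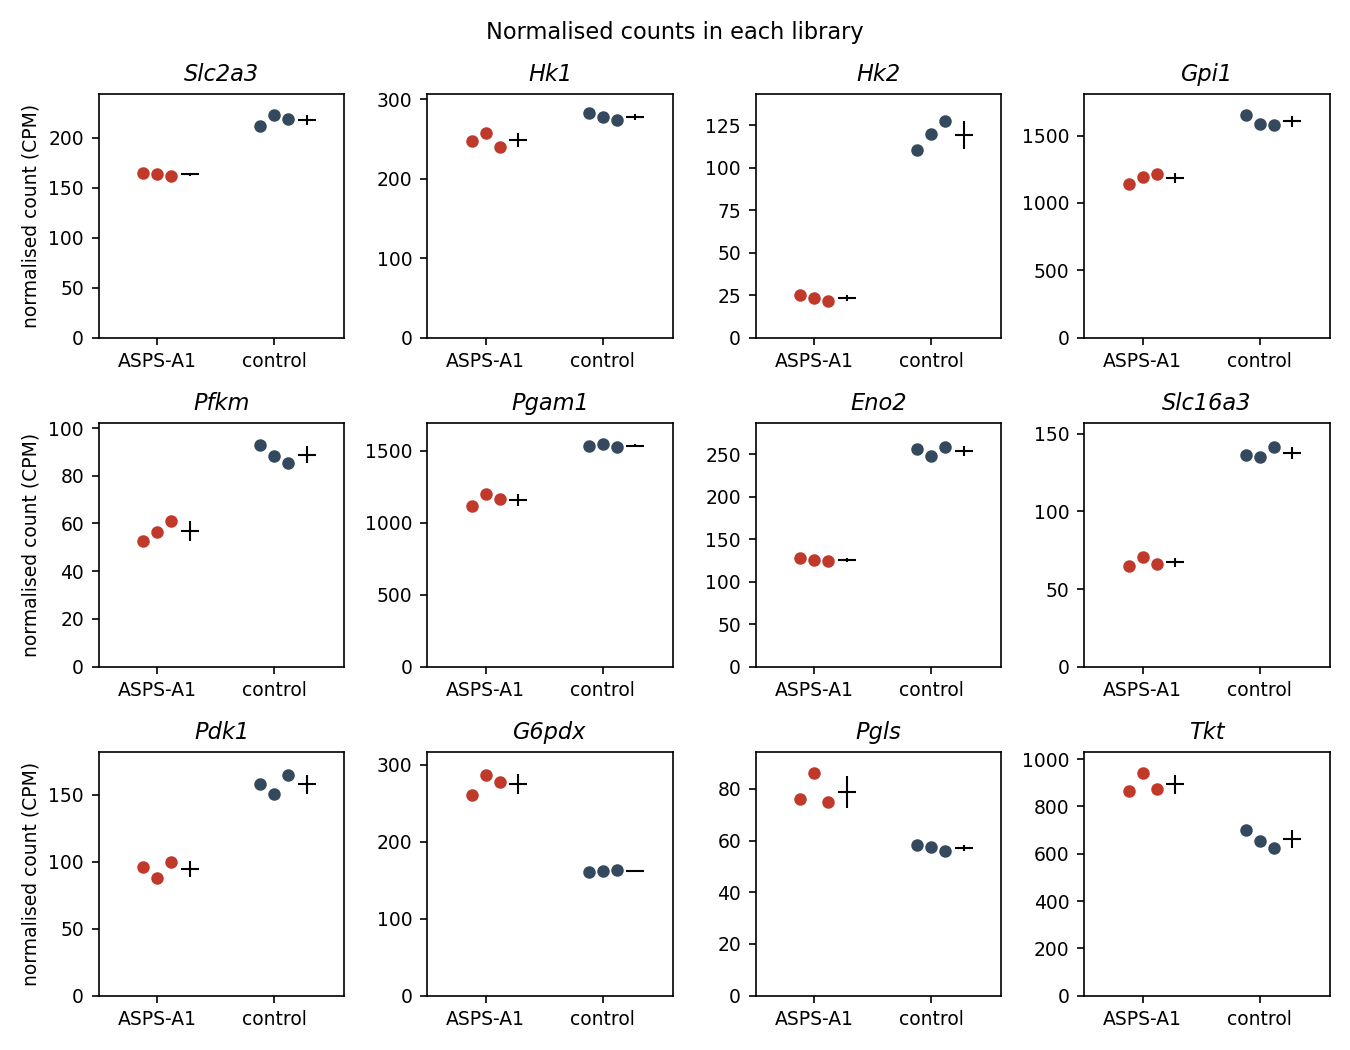
Normalised counts (CPM) of 12 members in each of the 3 ASPS-A1 libraries and the 3 control libraries, with the mean and SD as black marks beside the points. In the panels from Slc2a3 to Pdk1 all ASPS-A1 points lie below all control points, widest apart for Hk2, and in the panels of G6pdx, Pgls and Tkt they lie above.

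Among the lactate genes, an exporter fell while the dehydrogenase did not pass the test. Ldha, which turns pyruvate into lactate, averaged 2158 ± 66.0 CPM with ASPS-A1 and 2206 ± 76.2 CPM in control (log2 fold change −0.032 ± 0.047, adjusted p = 0.565), though it was called lower when scaled by library totals (−0.23) and under the offsets (−0.23). Ldhb, the isozyme of oxidative tissues, had 10 counts over the ASPS-A1 libraries and 14 over the control libraries. Slc16a3, which encodes the lactate exporter MCT4, had 65.1, 70.4 and 66.4 CPM in the ASPS-A1 libraries and 136, 135 and 142 CPM in the control libraries. The groups were clearly apart, with a 2.05-fold fall (log2 fold change −1.03 ± 0.05, adjusted p = 2.31e-21). Slc16a1, which encodes the monocarboxylate transporter MCT1, had 190, 186 and 195 CPM with ASPS-A1 and 170, 176 and 173 CPM in control. All ASPS-A1 libraries lay slightly above control (0.14 ± 0.05, adjusted p = 0.00986), but library totals turned this to −0.057 (adjusted p = 0.275). The call was also lost without control replicate 1 (adjusted p = 0.0548) and with upper-quartile factors (0.085, adjusted p = 0.0979). Of the counts for both transporters, Slc16a3 held 26.1% ± 1.16 with ASPS-A1 and 44.3% ± 0.822 in control (SD, n = 3 each), a share that no scaling of libraries changes.

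Of the 3 pyruvate dehydrogenase kinases, 2 fell. Pdk1, a known target of hypoxia-inducible factor, had 96.0, 87.9 and 99.95 CPM in the ASPS-A1 libraries and 158, 150 and 165 CPM in the control libraries. No ASPS-A1 library reached the lowest control library, and the log2 fold change was −0.74 ± 0.05 (adjusted p = 2.16e-16). Pdk2, a broadly expressed isozyme, was scarce, with 3, 4 and 1 counts in the ASPS-A1 libraries and 39, 43 and 55 counts in the control libraries. Its log2 fold change of −3.60 ± 0.51 (adjusted p = 3.38e-08) therefore rests on 8 counts over the ASPS-A1 libraries. Pdk3, the most abundant of the 3 per kilobase, had 100.3, 99.2 and 101 CPM with ASPS-A1 and 104, 99.9 and 99.8 CPM in control. These values overlapped (−0.013 ± 0.053, adjusted p = 0.845), although Pdk3 was called lower when scaled by library totals (−0.21) and under the offsets (−0.16). Pdk3 made up 72.2% ± 1.07 of the kinases' CPM per kilobase with ASPS-A1 and 60.6% ± 1.24 in control.

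The oxidative arm of the pentose phosphate pathway rose at each of its 3 steps. G6pdx, glucose-6-phosphate dehydrogenase and the entry enzyme of the arm, had 261, 286 and 277 CPM in the ASPS-A1 libraries and 160, 162 and 163 CPM in the control libraries. The groups were far apart, and this was the largest rise of any member, 1.70-fold (log2 fold change 0.76 ± 0.05, adjusted p = 8.85e-19). G6pdx shares 13.6% of its exon length with Ikbkg, which had a log2 fold change of −0.45. The copy gene G6pd2 had 0 counts in every library. Pgls, the lactonase, averaged 78.9 ± 6.13 CPM with ASPS-A1 and 57.3 ± 1.20 CPM in control (0.46 ± 0.06, adjusted p = 8.70e-09), with 20.6% of its exon length shared. The value for Pgls was 0.16 (adjusted p = 0.00985) with the offsets, and the median of all genes in its length bin was 0.48. Pgd, which makes the second NADPH, averaged 186 ± 8.75 CPM with ASPS-A1 and 149 ± 1.83 CPM in control (0.32 ± 0.05, adjusted p = 1.69e-07). Summed, the arm stood at 540 CPM with ASPS-A1 and 368 CPM in control, a ratio of 1.47.

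In the non-oxidative arm, 3 of 4 genes rose. Tkt, the transketolase that returns pentoses to glycolysis and the most abundant gene of the pathway per kilobase, averaged 893 ± 40.3 CPM with ASPS-A1 and 661 ± 38.5 CPM in control (log2 fold change 0.44 ± 0.05, adjusted p = 1.22e-10). Rpe, the ribulose phosphate epimerase, averaged 95.2 ± 2.89 CPM with ASPS-A1 and 74.4 ± 2.72 CPM in control (0.36 ± 0.06, adjusted p = 3.49e-07), with 17.9% of its exon length shared with Kansl1l. Taldo1, the transaldolase, averaged 276 ± 14.3 CPM with ASPS-A1 and 238 ± 0.590 CPM in control (0.21 ± 0.05, adjusted p = 0.000123), but it was 0.015 (adjusted p = 0.786) when library totals set the scale and −0.098 (adjusted p = 0.0287) with the offsets. Rpia, the ribose phosphate isomerase, averaged 37.9 ± 0.402 CPM with ASPS-A1 and 37.5 ± 4.37 CPM in control (0.011 ± 0.077, adjusted p = 0.906). It was called lower when scaled by library totals (−0.18, adjusted p = 0.0395) and under the offsets (−0.18, adjusted p = 0.0288). G6pdx, Pgls, Pgd, Rpe and Tkt were higher under all 3 of these fits, with smaller values by library totals (0.57 for G6pdx, 0.27 for Pgls, 0.12 for Pgd, 0.16 for Rpe and 0.24 for Tkt).

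Ratios within a library do not depend on how libraries are scaled. Counts of the 7 pentose phosphate genes equalled 7.49%, 7.56% and 7.31% of the counts of the 16 glycolytic enzyme genes in the ASPS-A1 libraries, and 5.23%, 5.22% and 5.22% in the control libraries. At the branch point itself, G6pdx counts equalled 22.9%, 24.1% and 22.8% of Gpi1 counts with ASPS-A1 and 9.70%, 10.2% and 10.4% in control. Both ratios were higher in every ASPS-A1 library than in any control library. The glycolytic enzyme genes took 2.25% to 2.35% of all counts with ASPS-A1 and 2.78% to 2.91% in control, and the pentose phosphate genes took 0.169% to 0.178% with ASPS-A1 and 0.145% to 0.152% in control.

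The members span levels from Gapdh, at 5492 CPM per kilobase with ASPS-A1 and 5351 in control, to Pdk2, Ldhb and Fbp1, the lowest 3 in both groups. Pdk2 had 0.061 CPM per kilobase with ASPS-A1 and 0.77 in control, Ldhb had 0.13 with ASPS-A1 and 0.14 in control, and Fbp1 had 0.14 with ASPS-A1 and 0.076 in control. Transcript length moved with the fold changes of all genes. Split by length into 10 equal bins, all tested genes had a median of 0.48 on the log2 scale in the shortest bin and −0.27 in the longest, and its part in the members' changes was not tested beyond the fit with offsets. Of the 28 tested members outside the pentose phosphate pathway, 24 lay below the median of their own length bin, and 4 of the 7 pentose phosphate members lay above theirs. With offsets for length and GC content, Hk2 (−2.08), Eno2 (−0.99), Slc16a3 (−0.80), Pdk1 (−0.51) and Pfkm (−0.60) stayed lower and G6pdx (0.74) and Tkt (0.53) stayed higher. The offsets brought Slc2a1 (−0.11), Slc2a3 (−0.26), Pfkl (−0.11) and Tigar (−0.18) closer to 0 and took Pgk1 (−0.38) and Slc16a1 (0.28) farther from it, each by more than 1.5 times and with the call kept.

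**Figure D4:**
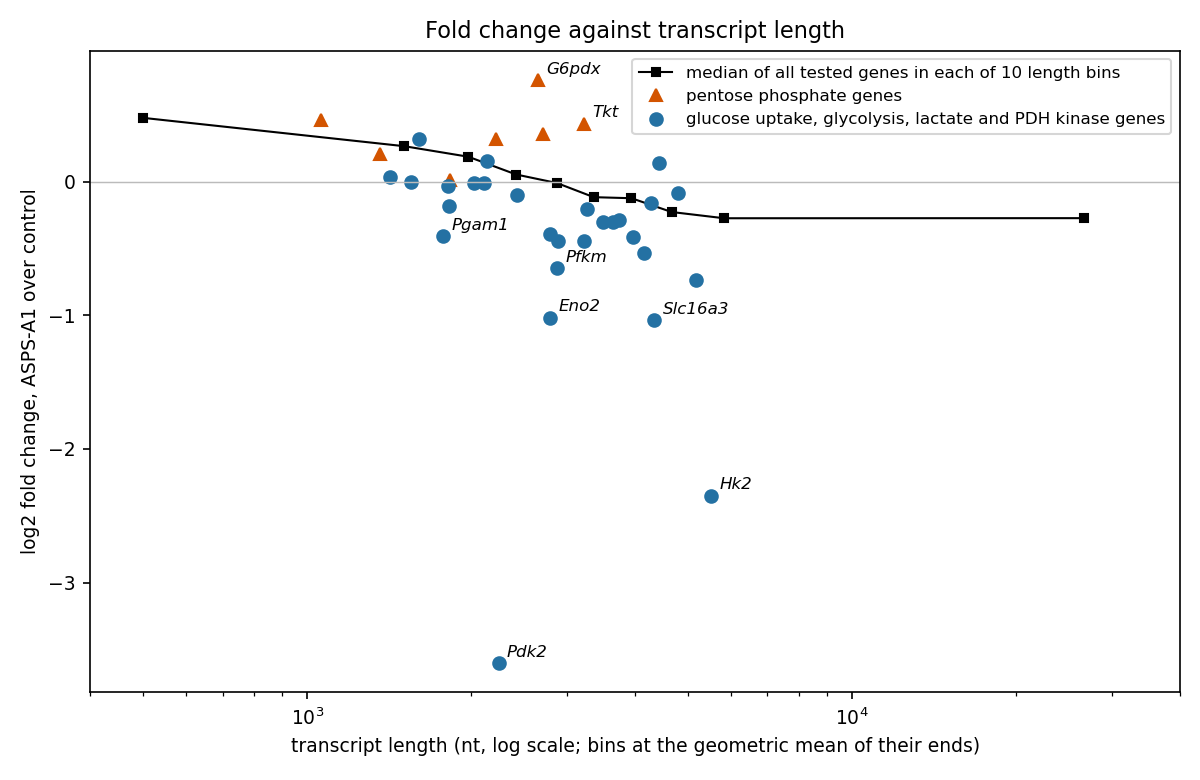
Log2 fold change of ASPS-A1 over control against transcript length (log scale) for the 35 members tested, with black squares for the median of all tested genes in 10 bins of length. The bin medians run from 0.48 to −0.27 as length increases, G6pdx and Tkt lie above that line, and Pgam1, Pfkm, Eno2, Slc16a3, Hk2 and Pdk2 lie below it.

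Other genes around the pathway, a list of 53, moved both ways, with 14 of 38 tested higher, 14 lower and 10 not past the threshold (median log2 fold change −0.043). These are 36.8% each way, close to the 32.4% higher and 33% lower among all genes tested. Among genes with at least 10 CPM in the higher group, the largest rises were Dld (log2 fold change 0.81), which encodes the shared lipoamide dehydrogenase subunit of the pyruvate dehydrogenase complex, Prps1 (0.52), which turns ribose phosphate into the precursor of nucleotides, and Mpc2 (0.51), a subunit of the mitochondrial pyruvate carrier. Dld had 263, 257 and 271 CPM in the ASPS-A1 libraries and 155, 153 and 145 CPM in the control libraries, with no overlap. Mpc2 did not pass with the offsets for length and GC content (0.10, adjusted p = 0.159), which also lowered Prps1 to 0.31. Under the same limit the largest falls were Pdpr (−0.79), which encodes a regulatory subunit of the pyruvate dehydrogenase phosphatase, Pgm2l1 (−0.68), a sugar bisphosphate synthase, and H6pd (−0.61, or −0.33 with the offsets), the glucose phosphate dehydrogenase of the endoplasmic reticulum. Further subunits of pyruvate dehydrogenase, singled out after their values were seen, were Pdhb (0.49, or 0.19 with the offsets), Pdhx (0.50) and Dlat (0.42), all called higher, and Pdha1 (−0.046, adjusted p = 0.431).

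Of 14 tested regulators of glycolytic genes, 3 were higher, 6 lower and 5 not past the threshold (median log2 fold change −0.17). These are 21.4% higher and 42.9% lower, beside 32.4% and 33% of all genes tested, and 65.3% of all genes were called either way. Myc, a transcription factor that drives growth metabolism, had 30.4, 25.3 and 22.7 CPM in the ASPS-A1 libraries and 6.53, 5.50 and 5.60 CPM in the control libraries, a log2 fold change of 2.16 ± 0.12 (adjusted p = 1.23e-20). Egln1, the prolyl hydroxylase that marks hypoxia-inducible factor for destruction and is itself one of its targets, had 24.6, 24.2 and 27.2 CPM with ASPS-A1 and 77.3, 77.5 and 79.5 CPM in control (−1.62 ± 0.07, adjusted p = 6.58e-25). Neither gene's groups overlapped. Hif1an, which encodes a further inhibitor of this factor, fell (−1.05), as did Mlxipl (−1.32), which encodes the glucose-sensing factor ChREBP, while its partner Mlx rose (0.79). Hif1a, the factor's oxygen-regulated subunit, was called higher (0.17, adjusted p = 0.00221), but had −0.022 (adjusted p = 0.714) with scaling by library totals. Upper-quartile factors gave Hif1a 0.12 (adjusted p = 0.0249), and the offsets for length and GC content gave 0.33 (adjusted p = 2.32e-10). Txnip, a glucose-induced inhibitor of glucose uptake that was singled out after its values were seen, averaged 2059 ± 35.5 CPM with ASPS-A1 and 3483 ± 201 CPM in control (−0.76 ± 0.05, adjusted p = 1.64e-18).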

How the data were processed

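Poly(A)-enriched RNA was sequenced from 3 ASPS-A1 and 3 control libraries. The deposited table holds raw counts per gene symbol. Per the submitters' processing notes, the tools were HISAT2 2.1.0, fastp 0.22.0, DESeq 1.38.3 and HTSeq 0.9.1. The sources do not give a genome build, an annotation or a strand setting. No sample column was left out.

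Genes passing filterByExpr (minimum count 10, minimum total 15; 11686 of 22192) were fitted with TMM scaling and the robust quasi-likelihood model of edgeR 4.0.16 (R 4.3.3, common coefficient of variation 5.66%), and tested two-sided, with p-values adjusted by Benjamini-Hochberg across these genes (threshold 0.05). Standard errors were taken as the size of the log2 fold change divided by the root of F. The script was tested on simulated counts. Lengths (longest coding transcript, 95.8% of tested genes), exon overlap and near copies (minimap2 2.31) came from GENCODE M21 (GRCm38). Symbols of all members matched.

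Groups follow the treatment label, without a block. Same-group libraries differed by more than counting error (chi-square over its degrees of freedom 4.27 to 6.95).

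Alternatives were other scalings, DESeq2 1.42.0, limma-voom (limma 3.58.1), other filters, a replicate block, leaving out each library, a non-robust fit, glmTreat, and offsets removing a lowess trend (span 0.3) on length and GC content. The members, lists and rules were chosen with earlier results of these data known. All 37 members are named. Of each further list the 3 largest called changes in each direction with at least 10 CPM are named. Promoters of the 3 largest falls are printed, and that of G6pdx, the largest rise, is not, because all 250 bases lie in an annotated exon.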

Additional observations from a re-analysis of the deposited data

How the results depend on the processing

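Over the scalings, tools, filters, left-out libraries and the length and GC offsets, 513 of 560 member values kept direction and call, and 20 changed sign. Among values that kept their sign, 8 lost the call and 19 gained one. Some of the 20 that changed sign also lost or gained a call. Of 18 members called lower, 16 stayed so throughout, and of 8 called higher, 5 did. Testing against 1.5-fold left 5 members lower and 1 higher, and 880 genes lower and 812 higher overall. Members lower ran from 17 to 18 and higher from 7 to 9 without each library, all genes lower from 3597 to 3707 and higher from 3511 to 3679. With the replicate block, 19 members were lower and 8 higher, because Pkm then passed, and 3807 of all genes were lower and 3746 higher. Deviations of same-numbered libraries correlated at −0.0138, 0.00709 and 0.00398, in each case a control library of another number correlated better, and the labels name no shared batch, so the numbers were not taken as pairs. The isozyme ratios kept their sign without each library.

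Signs changed mostly for values near 0. With library totals, Slc2a6 had −0.040, Gapdh −0.16, Slc16a1 −0.057 and Rpia −0.18. With the offsets, Hk1 had 0.066, Pfkfb3 0.15, Gapdh −0.23, Rpia −0.18 and Taldo1 −0.098. Upper-quartile factors gave Gapdh −0.015 and Rpia −0.041. Relative log expression factors gave Aldoa 0.010 and Eno1 0.00042, and DESeq2 gave Aldoa 0.010 and Eno1 0.00039. Leaving out each library gave −0.051 to 0.043 for Aldoa and −0.040 to 0.020 for Eno1, above 0 for both without ASPS-A1 replicate 1 and for Aldoa also without control replicate 1 (0.011). It gave −0.026 to 0.0022 for Pdk3 and −0.085 to 0.066 for Rpia, whose signs changed without control replicate 1. The cause was not tested. Pfkfb4 lost its call without ASPS-A1 replicate 2 or 3 or control replicate 3. Counts of a few reads limit Pdk2, Fbp1 and Ldhb.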
